A study of Homo sapiens with 6 samples.

Results

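Spliceosomal small nuclear RNAs (snRNAs) are here U1, U2, U4, U5, U6, U11 and U12. Several of them come from multi-copy gene families with many annotated pseudogene copies. The set described here holds 70 genes whose symbols name an snRNA gene or copy and whose counts summed to at least 8 over 4 iCLIP libraries of FLAG-tagged TIRR. It was taken from 362 genes with such symbols and at least 1 count in any of the 6 libraries, and from 28231 genes listed in any iCLIP library. The members were selected on this summed level, so the level is given as a description and was not tested.

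U1 snRNA pairs with the 5′ splice site of a new transcript and U2 snRNA with the branch point. U4, U5 and U6 join as a tri-snRNP, in which U6, made by RNA polymerase III, is held by U4 until the spliceosome is activated and then forms its catalytic centre. U11 and U12 do the work of U1 and U2 in the minor spliceosome, and the RNVU1 genes encode variant U1 sequences. TIRR, the product of NUDT16L1, is an RNA-binding protein that also binds the DNA repair protein 53BP1.

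The cells were U2OS, a human osteosarcoma line. In iCLIP, RNA is crosslinked by ultraviolet light to proteins in contact with it and recovered with an antibody; for it, the cells stably carried a FLAG version of TIRR (genotype TIRR_FLAG). Of these, 2 libraries came from cells that received an X-ray dose of 5 Gy and were left for 4 h, and 2 from untreated cells, and RNA-seq came from WT cells without the tag, with 1 irradiated library (5 Gy, 4 h) and 1 untreated library. For RNA-seq the labels name X-rays but the series' design names gamma radiation, and empty-vector cells were not analysed here. It is not stated whether the line was 1 clone or whether replicates were separate cultures. The p-values thus set the gap between conditions only against a spread estimated from these libraries, pooled in part over genes. That spread may be a technical matter.

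Gene counts per iCLIP library numbered 400723 and 664777 in irradiated cells, against 781997 and 799709 in untreated cells, and intergenic counts made up 30.6% to 31.3% of each library. The replicate pairs differed by more than counting error over all genes, with a chi-square over degrees of freedom of 1.87 in irradiated and 1.42 in untreated cells. Over the snRNA set this ratio was 21.1 in irradiated and 3.09 in untreated cells, and without RNVU1-2A it was 4.81 and 3.16. Without RNU1-28P as well, a gene chosen after its values were seen, it was 4.31 and 2.25. Relative to counting error, replicates thus differed more over the snRNA set than over all genes, in both conditions. The ratio also depends on counts per gene, on which the set and all genes were not matched. In RNA-seq, 9 of 12 mesenchymal and bone markers had at least 100 counts, with sums of 140178 in the irradiated and 125237 in the untreated library. SP7, a late osteoblast marker, was at 0, and COL1A2 (2 and 6 counts) and BGLAP (4 and 3) were close to it. The 6 epithelial markers summed to 6310 and 6662, and the 4 neural markers to 376 and 308, in the irradiated and untreated libraries. Of these, 3 epithelial markers, KRT8 and KRT18 among them, and 2 neural markers had at least 100 counts.

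The 70 members held 6405 iCLIP counts. U1 genes and copies held 4834 of these (75.5%) in 35 members, U6 509 (7.95%) in 16, U5 501 (7.82%) in 4, U4 215 (3.36%) in 3, U2 205 (3.20%) in 10, and U11 and U12 129 and 12 in 1 each. The counts were concentrated in a few genes: RNU1-67P (1261 counts), RNVU1-2A (1123) and RNU1-138P (803) held 49.8%, 12 members had at least 100 and 35 had under 20. RefSeq annotates 14 members as snRNA genes and 56 as pseudogenes, and the pseudogenes held 62.8% of the counts. All 10 U2 members and the 1 U12 member are among the pseudogenes, so these 2 class sums hold no annotated snRNA gene. In all, 56 members were listed in every iCLIP library and 14 were missing from at least 1. All 8 RNVU1 members, and 17 members in total, lie on chromosome 1.

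Most members have listed lengths near those of whole snRNAs. Of the 35 U1 members, 23 have a listed length of 164 or 165 bases, with a range of 128 to 175. The U2 members span 178 to 212 bases and the U6 members 100 to 108. Members of 1 class can be close in sequence, and reads may have been split or misassigned between them. Every value for a single copy, and the split into snRNA genes and pseudogenes, carries that uncertainty. Class sums are less exposed to it, but reads lost to copies outside the set or discarded as multi-mapping would still be missing from them.

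At the minimum of 8, 9 members had exactly 8 counts: RNU1-108P, RNU1-139P, RNU1-20P, RNU1-62P, RNU1-75P, RNU2-6P, RNU6-166P, RNU6-192P and RNVU1-27. Another 7 genes had 7 counts and were left out: RNU1-64P, RNU1-98P, RNU2-20P, RNU2-32P, RNU2-57P, RNU6-28P and RNU6-33P. In all, 250 matching genes had 1 to 7 iCLIP counts. Among those below the minimum were genes that are not pseudogene copies by name, such as RNU6ATAC (5 counts) and RNU4ATAC (3 counts) of the minor spliceosome, RNU1-2 (4 counts), RNU6-2 and RNU6-7 (2 counts each) and RNU6-9 (1 count). All 362 matching genes together held 6957 counts, so the 70 members carry most of the signal on these families.

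Per length, the members were among the most densely covered genes. Counts per kb, summed over the 4 libraries, lay between 42.1 and 7689 with a median of 126, against a median of 1.56 for the 15041 genes with at least 8 counts and 100 bases. Of the 10 genes with the most counts per kb, 5 were members, and of the top 50, 23 were. The minimum of 8 counts on such short genes sets the lower end of this range. Listed lengths of other genes can be near their whole span, as for HHAT (348045 bases), which lowers their counts per kb. The ranks and the gap between the medians are therefore a description.

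By RefSeq positions in GRCh38.p14, 36 members lie within the span of an annotated protein-coding or lncRNA gene and 34 do not. A containing gene with iCLIP counts was found for 25 members, and each of the 25 had more counts per kb than that gene, by a ratio of 11.6 (RNU2-51P in SYNJ2BP-COX16) to 7421, with a median of 152. The highest ratio was that of RNU1-67P (chrX:119423742-119423905), with 7689 counts per kb inside SLC25A43, which had 1.04. RNU1-11P inside PHACTR1 had 1037 counts per kb against 0.577, RNU5A-8P inside HHAT 1175 against 3.11, and RNU1-16P inside DCUN1D2 598 against 11.1. The minimum of 8 counts on short genes largely fixes this direction, so the ratios are a description. The table used gives spans only, so exons and introns were not told apart. Strands were not compared either, so a member and the gene that contains it may lie on opposite strands.

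**Figure D1:**
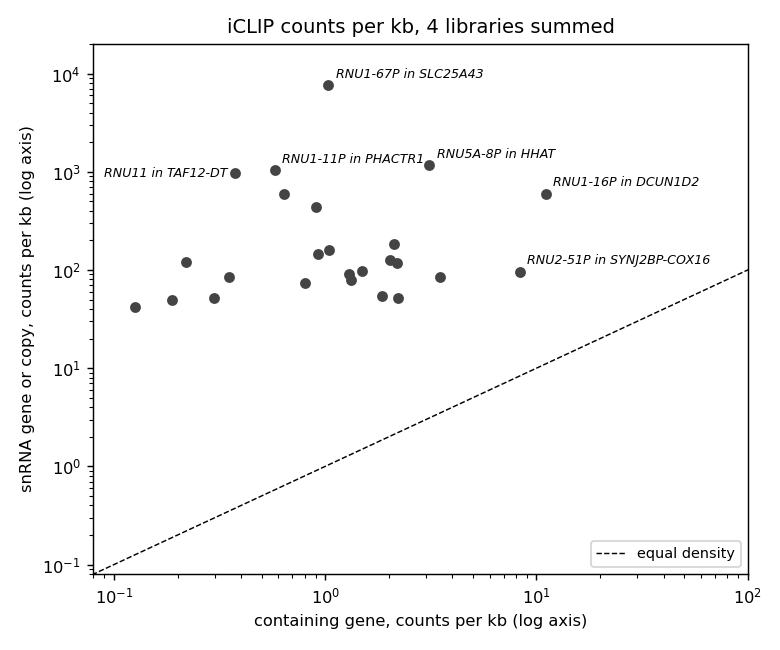
Counts per kb of 25 snRNA genes and copies (vertical, log axis) against the annotated gene that contains each (horizontal, log axis), summed over the 4 iCLIP libraries. All points lie above the dashed line of equal density, RNU1-67P in SLC25A43 the farthest at 7689 against 1.04 counts per kb.

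The summed snRNA set took a larger share of gene counts in both irradiated libraries than in either untreated one. It held 0.257% (95% exact Clopper-Pearson interval 0.242 to 0.273) and 0.352% (0.338 to 0.366) of gene counts in irradiated cells, against 0.188% (0.179 to 0.198) and 0.195% (0.186 to 0.205) in untreated cells. The means were 0.304% ± 0.0669 in irradiated and 0.192% ± 0.00492 in untreated cells (SD, n = 2 each). Scaled to counts per 1e+06 of the TMM-normalised library size (CPM), this was a ratio of 1.66. A single gene, RNVU1-2A, moved this sum. Without it the set held 0.250% and 0.204% in irradiated cells, against 0.181% and 0.189% in untreated cells, a CPM ratio of 1.29. The values still did not overlap between the groups. The exact intervals of irradiated library 2 (0.193 to 0.215) and untreated library 2 (0.179 to 0.199) did overlap. These intervals cover counting error only, and no test was run on sums over the set.

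By class, the U1 and U6 sums were higher in both irradiated libraries, and the others overlapped. U1 held 0.189% and 0.284% of gene counts in irradiated cells, against 0.140% and 0.137% in untreated cells, and without RNVU1-2A 0.182% and 0.136%, against 0.132% and 0.131%. U6 held 0.0242% and 0.0233% in irradiated cells, against 0.0153% and 0.0171% in untreated cells, a CPM ratio of 1.53. Without RNU6-31P and RNU6-222P the other 14 U6 members held 0.00998% and 0.00587% in irradiated cells, against 0.00691% and 0.00900% in untreated cells, and overlapped. With all 16 members the pairs were tight, with means of 0.0238% ± 0.000629 in irradiated and 0.0162% ± 0.00126 in untreated cells (SD, n = 2 each). U5 held 0.0232% and 0.0176% in irradiated cells, against 0.0159% and 0.0209% in untreated cells. U4 held 0.00499% and 0.0122%, against 0.00614% and 0.00825%, and U2 0.00599% and 0.0102%, against 0.00780% and 0.00650%, in irradiated against untreated cells. For U2, U4 and U5 the SD of the irradiated pair was wider than the gap between the condition means.

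**Figure D2:**
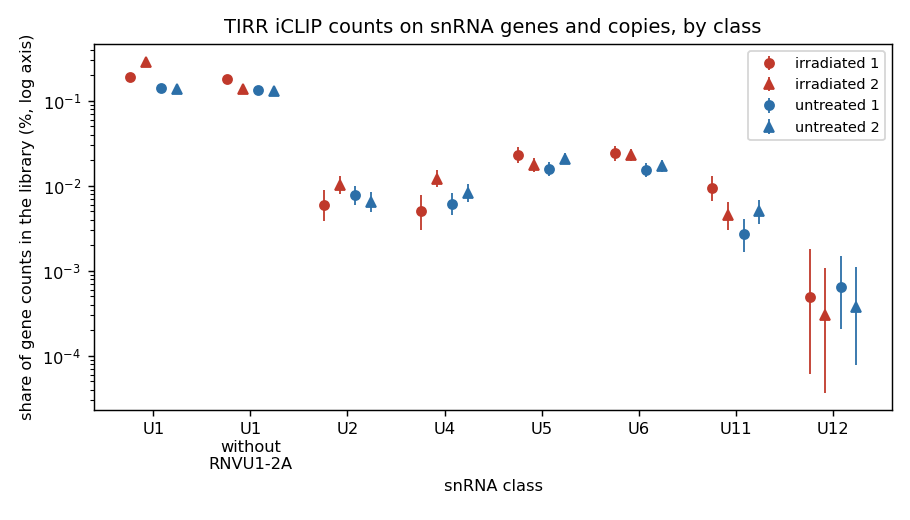
Share of gene counts (percent, log axis) held by each snRNA class in the 4 iCLIP libraries, irradiated to the left of untreated, with exact 95% intervals that cover counting error. U1 and U6 lie higher in both irradiated libraries, U1 at 0.189% and 0.284% against 0.140% and 0.137%, while U2, U4, U5, U11 and U12 overlap.

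Split by annotation, the pseudogene copies held 0.191% and 0.159% of gene counts in irradiated cells, against 0.138% and 0.140% in untreated cells. The members annotated as snRNA genes held 0.0664% and 0.193% in irradiated cells, against 0.0501% and 0.0551% in untreated cells, and without RNVU1-2A 0.0596% and 0.0450%, against 0.0425% and 0.0485%. Without that gene only the pseudogene sum kept the irradiated libraries above the untreated ones, by a CPM ratio of 1.32, while the snRNA gene sums overlapped at a ratio of 1.21. The difference between these ratios was not tested.

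Of the 70 members, 27 passed the filter on low counts and were tested with edgeR's quasi-likelihood test, with Benjamini-Hochberg adjustment over all 9230 tested genes. At an adjusted p below 0.05, 3 were called higher in irradiated cells (RNU6-31P, RNU6-222P and RNVU1-2A, the last through 1 library) and 0 lower, against backgrounds of 2.43% of all tested genes called higher and 1.07% called lower. At an unadjusted p below 0.05, 7 members were higher and 0 lower by edgeR, against 14.5% of all tested genes in either direction. By DESeq2, 5 were higher and 0 lower at an unadjusted p below 0.05, against 5.24% of all genes in either direction. None of the 3 was called by DESeq2, which gave an adjusted p for 7 of the 27, RNVU1-2A among them but neither U6 copy. The irradiated pair was above the untreated pair for 9 of the 27 and below it for 0, where the background is 22.0% in each direction. The median log2 fold change was 0.38, against 0.00157 for all tested genes, and 0.29 without RNVU1-2A. Of the 27, 21 passed the filter in all 4 libraries and 6 did not, 1 of them (RNVU1-31) only through the irradiated libraries, so these counts describe the tested members only.

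Without the filter, all 70 members had a median log2 fold change of 0.23, against -0.04 over 28231 genes. Of the 70, 43 were positive and 27 negative, where 48.3% of all genes were positive. In that fit 3 members passed, all higher (RNVU1-2A, RNU6-31P and RNVU1-31), against 1.25% of all genes called in either direction. In these bulk samples, fewer cells that hold an RNA and less of it per cell cannot be told apart, nor can more of an RNA and more of it bound to TIRR.

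**Figure D3:**
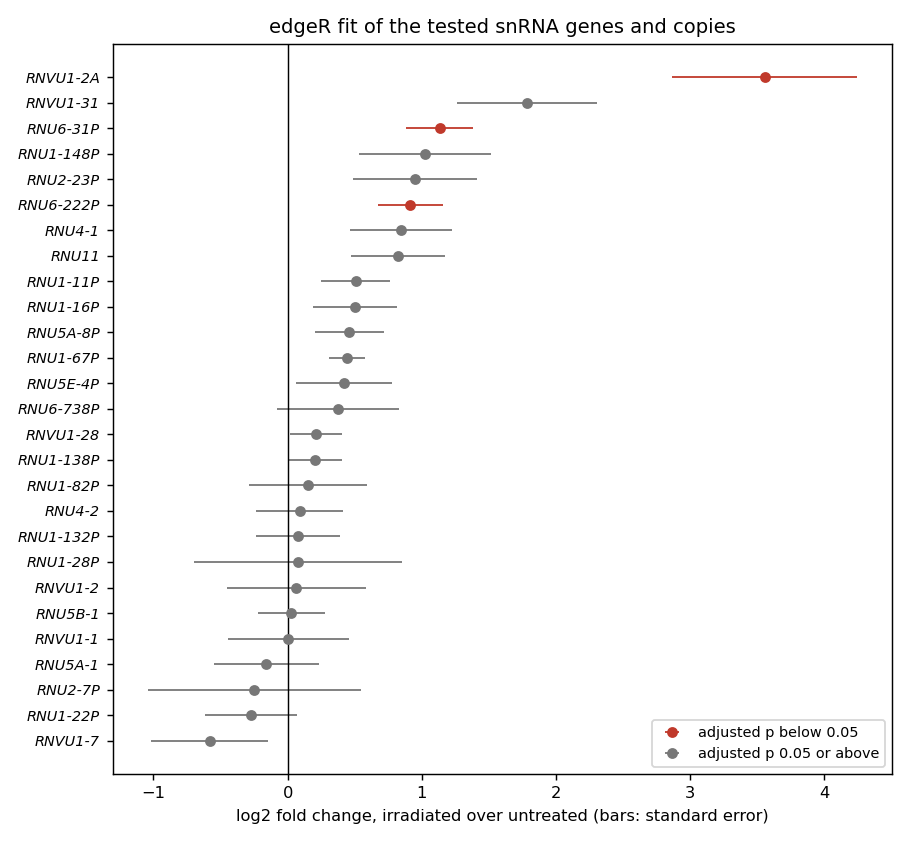
Log2 fold change of irradiated over untreated cells for the 27 tested snRNA genes and copies (edgeR), with a standard error derived from the test's F statistic. Of these, 23 lie right of 0 and 4 left of it, and the 3 marked genes, RNVU1-2A, RNU6-31P and RNU6-222P, passed an adjusted p of 0.05.

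Among U1 genes, RNU1-67P, a U1 pseudogene copy on chromosome X, had the most counts. It stood at 609.6 and 532 CPM in irradiated cells, against 419 and 416 CPM in untreated cells. Both irradiated libraries were higher, and the log2 fold change was 0.45 ± 0.13 (SE), short of the threshold (edgeR adjusted p = 0.0808). Without irradiated library 2 it passed (0.55, edgeR adjusted p = 0.0134), but without any other library it did not (0.35 to 0.44, adjusted p = 0.180 to 0.506). For SLC25A43, which contains it, the log2 value was -0.42 ± 0.44 (edgeR adjusted p = 0.732).

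RNVU1-2A, a variant U1 gene at chr1:144551779-144551943, had 69.4 and 1504 CPM in irradiated cells, against 75.0 and 64.7 CPM in untreated cells. Irradiated library 2 alone was high, and the other irradiated library lay between the untreated ones. It was 21.7-fold higher in irradiated library 2 than in irradiated library 1, and held 42.0% of the set's counts there (983 counts), against 2.62% in irradiated library 1 (27 counts) and 4.07% and 3.39% in the untreated libraries. The fitted log2 fold change was 3.56 ± 0.69 (SE, edgeR adjusted p = 0.00495). It was -0.01 without irradiated library 2 (edgeR adjusted p = 0.998), and under DESeq2 it was 3.49 with an adjusted p of 0.417. Among 8667 genes with at least 40 counts it was the only one that was at least 10-fold higher in irradiated library 2 than in each of the others. RNVU1-28, the next variant U1 gene 8723 bases away, did not share that level, with 177 and 135 CPM in irradiated cells, against 118 and 146 CPM in untreated cells, and its log2 value of 0.21 ± 0.19 did not pass (edgeR adjusted p = 0.692).

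The other U1 members with many counts changed little or unevenly. RNU1-138P (chr4:113420323-113420486) had 442 and 246 CPM in irradiated cells, against 310.1 and 271 CPM in untreated cells, so the irradiated libraries lay on either side of the untreated ones. Its log2 fold change was 0.20 ± 0.20 (edgeR adjusted p = 0.715), 0.61 without irradiated library 2 (adjusted p = 0.0111) and -0.24 without irradiated library 1. RNU1-132P was split in the same way, with 95.2 and 39.8 CPM in irradiated cells, against 65.0 and 52.5 CPM in untreated cells (log2 fold change 0.08 ± 0.31, edgeR adjusted p = 0.952). RNU1-11P lay higher in both irradiated libraries, at 87.5 and 71.9 CPM, against 66.3 and 43.9 CPM in untreated cells, yet did not pass (log2 fold change 0.51 ± 0.26, edgeR adjusted p = 0.376). PHACTR1, the gene that contains RNU1-11P and codes for a regulator of actin and protein phosphatase 1, did rise, by 0.72 ± 0.18 on the log2 scale (edgeR adjusted p = 0.0335). RNU1-16P had 33.4 and 52.0 CPM in irradiated cells, against 32.5 and 30.5 CPM in untreated cells, so its groups did not overlap (0.50 ± 0.31, edgeR adjusted p = 0.511). For DCUN1D2, which contains it, the value was 0.27 ± 0.18 (edgeR adjusted p = 0.525).

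The remaining RNVU1 members, of which RefSeq annotates RNVU1-2 as a pseudogene, showed no common direction. RNVU1-31 had 61.7 and 19.9 CPM in irradiated cells, against 7.503 and 13.4 CPM in untreated cells, with irradiated library 1 the highest. Its log2 fold change was 1.79 ± 0.53 (edgeR adjusted p = 0.0722), 2.54 without irradiated library 2 (adjusted p = 5.97e-05), 2.26 without untreated library 2 (adjusted p = 0.0119) and 0.91 without irradiated library 1 (adjusted p = 0.589). RNVU1-7 had 36.0 and 22.9 CPM in irradiated cells, against 62.5 and 22.0 CPM in untreated cells, with untreated library 1 apart (-0.58 ± 0.43, edgeR adjusted p = 0.604). RNVU1-1, at 30.9 and 16.8 CPM in irradiated cells against 28.8 and 15.9 CPM in untreated cells, had a log2 fold change of 0.00 ± 0.45, and RNVU1-2, at 28.3 and 16.8 CPM against 8.75 and 31.7 CPM, of 0.07 ± 0.52. In RNVU1-1 the libraries numbered 1 were the higher ones in both conditions. RNVU1-17 and RNVU1-27 were not tested, with 5 and 7 counts in irradiated cells against 4 and 10 in untreated cells, and 3 and 2 against 2 and 1.

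**Figure D4:**
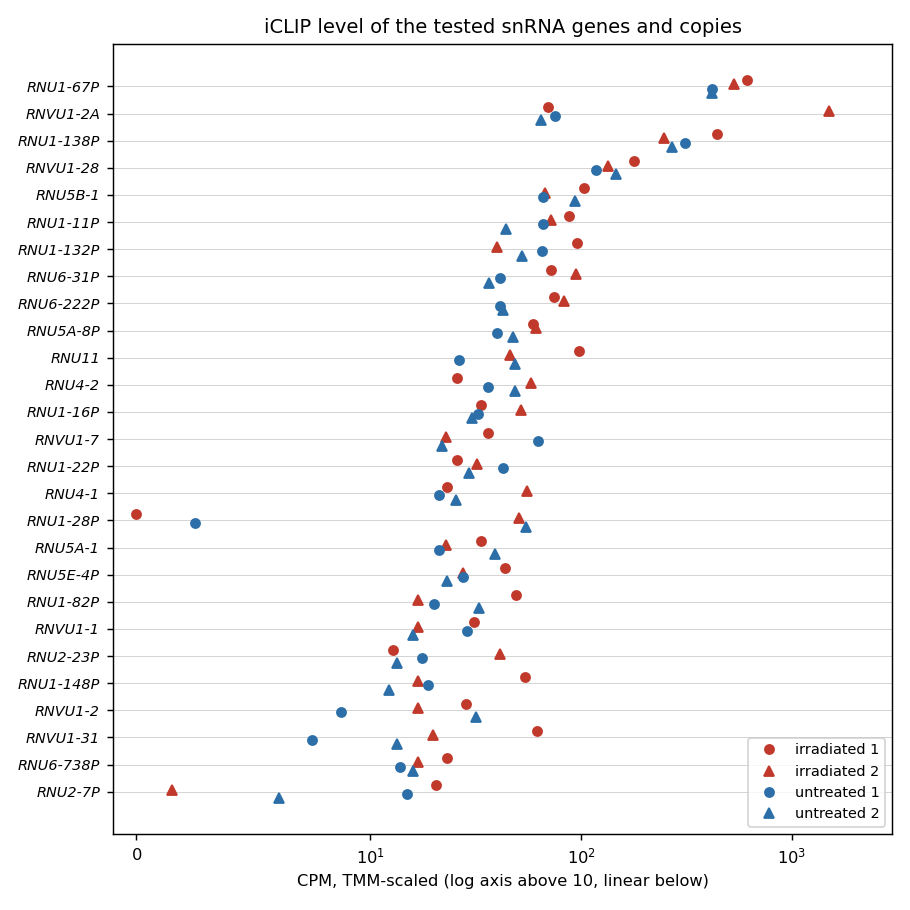
Level of the 27 tested snRNA genes and copies in each iCLIP library, in CPM (log axis above 10, linear below), irradiated and untreated libraries marked apart. RNVU1-2A in irradiated library 2 (1504 CPM) lies far from its other values of 64.7 to 75.0 CPM, and RNU6-31P and RNU6-222P have both irradiated libraries to the right of both untreated ones.

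Some U1 members split by replicate number rather than by treatment. RNU1-28P (chr14:34556226-34556389), singled out after its values were seen, had 0 and 33 counts in irradiated cells, against 2 and 45 counts in untreated cells. It was the only gene of the 8667 in which both libraries numbered 2 were at least 10-fold above both numbered 1, and 0 genes showed the opposite. Its log2 fold change was 0.08 ± 0.78 (edgeR adjusted p = 0.981), -7.29 without irradiated library 2 (adjusted p = 0.00103) and 3.47 without untreated library 2 (adjusted p = 0.00381). RNU1-1, an annotated U1 gene, had 2 and 0 counts in irradiated cells, against 12 and 0 counts in untreated cells, so its counts came from the libraries numbered 1. The part of library preparation in these splits was not tested.

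**Figure D5:**
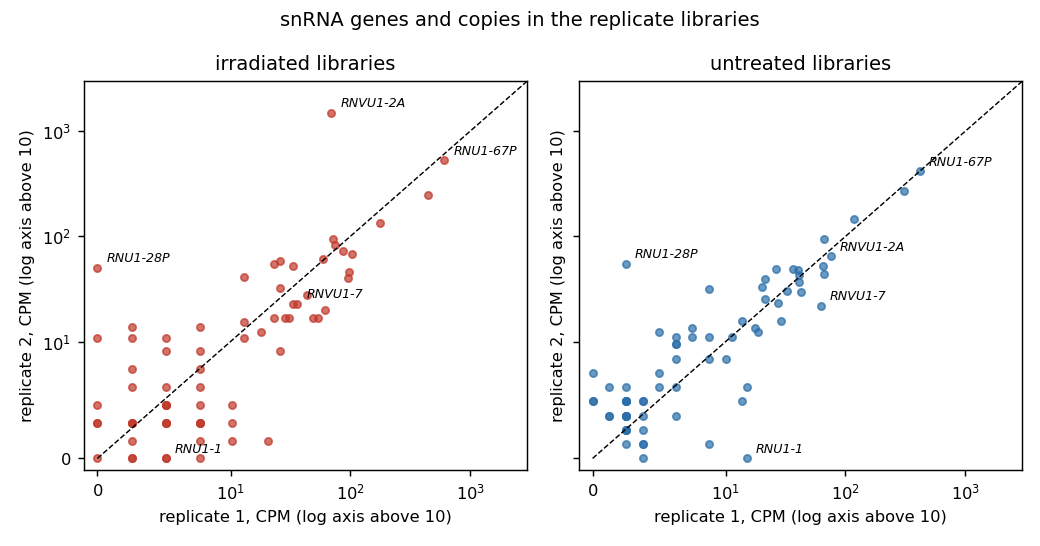
CPM of each snRNA gene or copy in replicate 1 (horizontal) and replicate 2 (vertical), irradiated libraries left and untreated libraries right, log axes above 10. RNVU1-2A leaves the diagonal in irradiated cells (69.4 against 1504 CPM) but not in untreated cells, and RNU1-28P leaves it in both.

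The 10 U2 copies had low counts, 57 at most. RNU2-23P (a pseudogene copy on chromosome 11) had 12.9 and 41.3 CPM in irradiated cells, against 17.5 and 13.4 CPM in untreated cells, and its log2 fold change was 0.95 ± 0.46 (edgeR adjusted p = 0.357), 1.41 without irradiated library 1 (adjusted p = 0.0389) and -0.26 without irradiated library 2 (adjusted p = 0.938). RNU2-7P had 20.6 and 1.53 CPM in irradiated cells, against 15.0 and 6.10 CPM in untreated cells, so within each condition the library numbered 1 was higher (-0.25 ± 0.79, edgeR adjusted p = 0.934). RNU2-61P had 3 and 6 counts in irradiated cells, against 6 and 9 in untreated cells, and RNU2-48P 2 and 7 against 5 and 8. Neither was tested, and the conditions overlapped in all 4 of these U2 copies.

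U4, which keeps U6 in check within the tri-snRNP, was represented by its neighbouring genes RNU4-2 and RNU4-1 on chromosome 12, 1190 bases apart. RNU4-2 had 25.7 and 58.1 CPM in irradiated cells, against 36.3 and 48.8 CPM in untreated cells (log2 fold change 0.09 ± 0.33, edgeR adjusted p = 0.942). RNU4-1 had 23.1 and 55.1 CPM in irradiated cells, against 21.3 and 25.6 CPM in untreated cells (0.84 ± 0.38, edgeR adjusted p = 0.304). In both genes irradiated library 2 was the highest of the 4. RNU4-1 passed without irradiated library 1 (1.23, edgeR adjusted p = 0.0236) and was -0.02 without irradiated library 2. RNU4-78P, the third U4 member, had 15 counts and was not tested.

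U5, which holds both exons during splicing, had 4 members and all were tested without a call. RNU5B-1 (chr15:65304677-65304793) had 103 and 67.3 CPM in irradiated cells, against 66.3 and 93.9 CPM in untreated cells (log2 fold change 0.03 ± 0.25, edgeR adjusted p = 0.980). RNU5A-1, on the same chromosome, had 33.4 and 22.9 CPM in irradiated cells, against 21.3 and 39.0 CPM in untreated cells (-0.16 ± 0.39, edgeR adjusted p = 0.910). Both U5 genes overlapped between conditions, while both pseudogene copies were higher by CPM in both irradiated libraries without passing the test. RNU5A-8P had 59.2 and 61.2 CPM in irradiated cells, against 40.01 and 47.6 CPM in untreated cells (0.46 ± 0.26, edgeR adjusted p = 0.445), and its containing gene HHAT had a log2 fold change of -0.06 ± 0.14. RNU5E-4P had 43.7 and 27.54 CPM in irradiated cells, against 27.51 and 23.2 CPM in untreated cells, the middle values all but equal (0.42 ± 0.36, edgeR adjusted p = 0.667). As shares of gene counts its conditions overlapped, with 0.00271% in irradiated library 2 and 0.00281% in untreated library 1.

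Among U6 copies, RNU6-31P and RNU6-222P rose in irradiated cells. RNU6-31P (chr2:200830009-200830116) had 72.0 and 94.9 CPM in irradiated cells, against 41.3 and 36.6 CPM in untreated cells, a 2.19-fold rise (log2 fold change 1.13 ± 0.25, edgeR adjusted p = 0.0144). RNU6-222P (chr19:54868941-54869044) had 74.6 and 82.6 CPM in irradiated cells, against 41.3 and 42.7 CPM in untreated cells, a 1.89-fold rise (0.92 ± 0.24, edgeR adjusted p = 0.0407). The libraries of a condition lay close together in both genes and the conditions did not overlap. Both are pseudogene copies outside any annotated protein-coding or lncRNA gene in the table used. Both calls were lost with fewer libraries while the changes stayed close in size. RNU6-31P was 0.89 without irradiated library 2 (edgeR adjusted p = 0.165) and 1.03 without untreated library 2 (adjusted p = 0.0964). RNU6-222P was 0.83 without irradiated library 2 (edgeR adjusted p = 0.200), 0.93 without untreated library 2 (adjusted p = 0.182) and 0.88 without untreated library 1 (adjusted p = 0.245). RNU6-222P also missed the threshold with library totals in place of TMM (0.85, edgeR adjusted p = 0.0655), no filter (0.89, adjusted p = 0.0890) and a replicate block (0.91, adjusted p = 0.109), and both missed it with libraries thinned to equal depth (RNU6-31P 0.92, adjusted p = 0.139; RNU6-222P 0.81, adjusted p = 0.196). RNU6-738P, the third tested U6 copy, had 23.1 and 16.8 CPM in irradiated cells, against 13.8 and 15.9 CPM in untreated cells (0.38 ± 0.45, edgeR adjusted p = 0.783).

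The low U6 members did not all share that direction. Without the filter, the 16 U6 members had a median log2 fold change of -0.37. RNU6-36P had 5 and 10 counts in irradiated cells, against 2 and 2 in untreated cells. RNU6-537P had 1 and 4 against 11 and 4, RNU6-1077P 4 and 2 against 5 and 8, RNU6-44P 3 and 2 against 5 and 7, and RNU6-115P 3 and 0 against 4 and 6. These are raw counts, and the irradiated libraries held fewer gene counts. In CPM the conditions overlapped in RNU6-537P, RNU6-1077P, RNU6-44P and RNU6-115P. RNU6-1077P had 10.3 and 3.06 CPM in irradiated cells, against 6.25 and 9.76 CPM in untreated cells. RNU6-115P had 7.72 and 0 CPM in irradiated cells, against 5.00 and 7.32 CPM in untreated cells. RNU6-1, an annotated U6 gene, had 0 counts in both irradiated libraries, against 4 and 5 counts in untreated cells. A count of 0 allows a share of up to 0.000749% and 0.000451% of gene counts in irradiated libraries 1 and 2 (3 counts per library), and the exact 95% interval reaches 0.000921% and 0.000555%. The U6 sum was thus carried by a few copies, RNU6-31P alone holding 30.1% of it.

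Of the minor spliceosome, RNU11 (chr1:28648600-28648734), which recognises the 5′ splice site of minor introns, had 97.7 and 45.9 CPM in irradiated cells, against 26.3 and 48.8 CPM in untreated cells. Irradiated library 1 was the highest and untreated library 1 the lowest, and the groups overlapped. Its log2 fold change was 0.82 ± 0.35 (edgeR adjusted p = 0.265), 1.37 without irradiated library 2 (adjusted p = 0.00149), 1.35 without untreated library 2 (adjusted p = 0.0295) and 0.29 without irradiated library 1 (adjusted p = 0.789). RNU12-2P, a U12 copy, had 2 and 2 counts in irradiated cells, against 5 and 3 in untreated cells. In CPM its conditions overlapped, with 5.14 and 3.06 in irradiated cells, against 6.25 and 3.66 in untreated cells. RNU6ATAC, below the minimum, had 1 and 2 counts in irradiated cells, against 1 and 1 in untreated cells, and RNU4ATAC 0 and 0 against 0 and 3.

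The genes that code for snRNP proteins and for factors of snRNA transcription, processing and assembly gave iCLIP counts of their own. Of a list of 99 such genes, 63 had iCLIP counts and 49 were tested, with 0 called in either direction by edgeR, at a background of 3.50% of tested genes, and 0 by DESeq2, which gave an adjusted p for 10 of them. At an unadjusted p below 0.05, 4 were higher and 4 lower by edgeR (background 14.5%), and 1 and 1 by DESeq2 (background 5.24%). Their median log2 fold change was -0.12, with 21 positive and 28 negative, and irradiated libraries lay above the untreated ones for 10 and below for 10, near the background of 22.0% each way.

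SNRNP70, which codes for the U1-70K protein that binds U1 snRNA, had the most counts of the list, with 548 and 483 CPM in irradiated cells, against 386 and 433 CPM in untreated cells (log2 fold change 0.32 ± 0.14, edgeR adjusted p = 0.265). SNRPN, an Sm core protein gene, had 208 and 260.1 CPM in irradiated cells, against 169 and 159 CPM in untreated cells (0.54 ± 0.16, edgeR adjusted p = 0.0850). INTS1, a subunit of the Integrator complex that cuts snRNA 3′ ends, had 224 and 103 CPM in irradiated cells, against 169 and 192 CPM in untreated cells (-0.23 ± 0.24, edgeR adjusted p = 0.740). Without irradiated library 1, SNRPN passed at 0.67 (edgeR adjusted p = 0.00763; 0.35 to 0.57 and adjusted p = 0.358 to 0.499 without each of the others) and INTS1 at -0.81 (edgeR adjusted p = 0.00756), while INTS1 was 0.31 without irradiated library 2. POU2F1, which codes for the snRNA gene activator Oct-1, had 121 and 136 CPM in irradiated cells, against 168 and 174 CPM in untreated cells (-0.40 ± 0.17, edgeR adjusted p = 0.288). Irradiated libraries were higher for SNRNP70 and SNRPN and lower for POU2F1, with no overlap and no call in any of the 3.

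Other small RNA families measured in the same libraries gave fewer tested genes. With the same minimum of 8 counts, 39 SNORA genes, which guide pseudouridylation, held 0.0549% and 0.0358% of gene counts in irradiated cells, against 0.0311% and 0.0369% in untreated cells. Of these 10 were tested, with 0 called and a median log2 fold change of 0.42. The 21 SNORD genes, which guide ribose methylation, held 0.0232% and 0.0135% in irradiated cells, against 0.00959% and 0.0179% in untreated cells, and the 5 SCARNA genes, which guide modification of snRNAs in Cajal bodies, 0.0192% and 0.0144%, against 0.0142% and 0.0130%. RN7SK, the RNA that holds the kinase P-TEFb inactive, and its copies had 26 and 55 counts in irradiated cells, against 52 and 43 in untreated cells. As shares of gene counts these were 0.00649% and 0.00827% in irradiated cells, against 0.00665% and 0.00538% in untreated cells. The 1 tested gene of the RN7SK group had a log2 fold change of 0.62, the 3 tested SCARNA genes a median of 0.19 and the 2 tested SNORD genes a median of -0.22. No difference between the families was tested.

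In RNA-seq the members were barely present. They summed to 7 counts in the irradiated library, against 12 in the untreated library, of 13023903 and 13015406 gene counts, a ratio of 0.583 (95% exact conditional interval 0.194 to 1.61). Of the 70, 60 had 0 counts in both libraries and no member had more than 2 counts in a library. All 362 matching genes had 103 counts in the irradiated and 97 in the untreated library, a ratio of 1.06 (0.796 to 1.42), so a difference was not detectable at these counts. Why the counts were so low was not tested. With 1 library per condition there was no test. With 0.5 added to each count, the iCLIP share of all 362 matching genes was 413 times their RNA-seq share in irradiated cells and 281 times in untreated cells. Over the 70 members it was 5287 and 2000 times, values that the selection on iCLIP counts raised and that rest on 7 and 12 RNA-seq counts. This sets FLAG-TIRR cells beside WT cells and iCLIP fragments beside a standard library, so it is a description of these libraries.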

How the data were processed

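Each library has 1 table of raw cDNA counts by gene, deposited by the authors as whole numbers, per the file headers. A percent of the library total, which includes intergenic counts, stands beside it per the file headers, as does a length in bases. The build was hg38 and kallisto 0.44.0 was used, per the submitters' processing notes; its role, the aligner, and the duplicate, multi-mapping and strand settings are not given in the sources used. Intergenic counts (30.6% to 31.3% of iCLIP libraries) entered neither library sizes nor tests.

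Counts were fitted with edgeR 4.0.16 in R 4.3.3 (quasi-likelihood, TMM, default filterByExpr, two-sided, adjusted p below 0.05). The standard error (SE) printed with an edgeR log2 fold change is its absolute value divided by the square root of the test's F statistic. It is not a separate estimate. DESeq2 1.42.0 was an alternative. Other steps used Python 3.11.15 with pandas 2.3.3 and scipy 1.17.1. The fit was tested on simulated data with levels taken from all tested genes. It recovered 68% of log2 changes of 1 and 40% of those of -1. For log2 changes of 2 and -2 it recovered 100% and 74%, so falls were found less often than rises. Of 152 calls 11 were false, and 0 genes were called when no change was simulated. The simulated spread followed the trend over all genes. Replicates of the snRNA set differed more than those of all genes, so these rates may not hold for the set. Gene symbols came from a gene name table that matched all 70 members, and positions from RefSeq GRCh38.p14.

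The members, lists and rule for named genes were chosen with earlier results of these data known. The rule names up to 6 members of each class with at least 20 counts, the 8 U1 and 8 U6 members with the most counts, called members, members without a P suffix, those around the minimum of 8, containing genes, and the 4 snRNP list genes with the most counts. One further list of cell type markers is not reported here.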

Additional observations from a re-analysis of the deposited data

How the results depend on the processing

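Over all genes, 323 passed by edgeR, against 122 by DESeq2, 190 with a replicate block and 212 with libraries thinned to equal depth, and 186 to 421 with 1 library left out, where the lone library was assumed to vary like the other group. Of the snRNA set 3 passed, against 0 by DESeq2 (which gave an adjusted p for 7 of the 27), 1 when thinned and 2 to 6 with 1 library left out. The replicate block kept RNVU1-2A (2.79) and RNU6-31P (1.11). The labels do not say what the replicate number marks. Between libraries of the same number, deviations from the condition mean correlated at -0.0826 over all tested genes but at 0.5001 over the 27 tested members. Of the snRNP list 0 to 2 passed with 1 library left out, and the set's median log2 fold change was 0.15 to 0.51. The difference in summed share, irradiated minus untreated, was 0.112 points for the set and 0.0974 for U1, against 0.0422 and 0.0273 without RNVU1-2A and 0.0651 to 0.160 and 0.049996 to 0.145 with 1 library left out. For U6 it was 0.0075, against 0.0051 of all counts with intergenic ones and 0.0034 without RNU6-31P, and, chosen after seeing the data, -3.0e-05 without RNU6-31P and RNU6-222P. RNU6-31P lost its call when thinned (0.92, adjusted p = 0.139), and RNU6-222P with library totals, no filter, the replicate block or thinning (0.85, 0.89, 0.91 and 0.81, adjusted p = 0.0655, 0.0890, 0.109 and 0.196). The cause was not tested.

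Some signs turned. With library totals in place of TMM, RNU5B-1 was -0.039, RNVU1-1 -0.061 and RNVU1-2 -0.00044; with no filter, RNU5B-1 was -0.0038 and RNVU1-1 -0.0259. RNVU1-1 was -0.0261 with a stricter filter. RNU4-2 was -0.010 with the replicate block. When thinned, RNU4-2 was -0.038, RNVU1-1 -0.011, RNVU1-2 -0.078 and RNU5E-4P -0.048. With 1 library left out, RNVU1-2A ranged over -0.0061 to 4.43, RNU1-138P -0.24 to 0.61, RNU5B-1 -0.25 to 0.36, RNU1-132P -0.56 to 0.70, RNU4-2 -0.72 to 0.45, RNVU1-7 -1.15 to 0.34, RNU4-1 -0.018 to 1.23, RNU5A-1 -0.53 to 0.34, RNVU1-1 -0.40 to 0.48, RNU2-23P -0.26 to 1.41, RNVU1-2 -0.58 to 1.27 and RNU2-7P -2.65 to 0.96. Depth limits many members: 35 of 70 had under 20 counts.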
